A study of Homo sapiens with 12 samples.

Results

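The cell division genes described here were 60 genes of DNA replication and mitosis, taken by gene symbol from the list of 58278 genes in the deposited tables. Each symbol matched 1 row. They were split by the stage of the cell cycle at which their products act, 31 at G1/S (entry into and passage through DNA replication) and 29 at G2/M (entry into and passage through mitosis). The placing of GMNN, CKS1B, MYBL2, CHEK1 and WEE1 was taken as ambiguous, since their products act in both stages. This set may be incomplete, as CCNA2, a cyclin of S phase and G2, was kept as a plain G2/M member.

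The cells were HK2, an immortalized human line of proximal tubular epithelial cells (TECs). Ctrl cells were untreated, and TN cells received TNF-α at 5 ng/mL for 3 h. PRTN and BUTN cells were given propionate at 15 mM or butyrate at 3 mM for 24 h before the same TNF-α, and in TNPR and TNBU cells the same short-chain fatty acids (SCFAs) were given for 24 h after it. Each of the 6 groups held 2 biological replicates, so all 12 libraries come from 1 line, and the spread behind each test was pooled over the 6 groups and moderated across genes. The groups share the immortalisation of the line by papillomavirus genes, whose products act on the p53 and RB proteins. The TN cells were collected after 3 h, and TNF-α-treated cells kept for a further 24 h without SCFA were not analysed here, so culture time and SCFA cannot be told apart. A general treatment text in the labels names thapsigargin and JQ1, whereas the labels of the single libraries name TNF-α, propionate and butyrate, which are used here.

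A cell that divides first commits to DNA replication. Cyclins D and E with their kinases CDK4, CDK6 and CDK2 phosphorylate RB, E2F factors are released, and genes for origin licensing, the replication machinery and deoxynucleotide supply are transcribed. Later the MYBL2 and FOXM1 factors act at the genes of mitosis, and cyclins A and B with CDK1, the Aurora and Polo kinases, the spindle motors and the spindle checkpoint carry the cell through division. When cells leave the cycle, a repressor complex called DREAM is known to bind E2F sites at G1/S genes and the cell cycle genes homology region (CHR) at G2/M genes. Tubular cells of a healthy kidney divide rarely, whereas HK2 cells divide in culture.

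The total expected count per library ran from 27269986 to 33851130. All 60 members were among the 24342 genes that passed the filter on low counts, the lowest of them, CDC25C, at a mean of 12.4 CPM (the expected count scaled to library size with TMM factors). TMM factors ran from 0.913 to 1.06, mitochondrial transcripts took 5.86% to 9.46% of the counts, and 3 counts equal 0.0867 to 0.112 CPM, which is counting error only. Replicates of TNPR and of TNBU lay farther apart than those of the other groups, at a chi-square per gene of 15.2 and 18.1 against 3.17 to 6.61. The spread pooled over the groups does not allow for this. Standard errors may thus be too small for TNPR and TNBU and too large for the other groups. Of 12 proximal tubule and epithelial markers, 7 reached a mean of 1 CPM in the 4 libraries without SCFA, among them PAX8, while LRP2 and MME were at 0 there. Their summed level was 1821 to 1973 CPM without SCFA and 1939 to 2502 CPM with it. Of 8 immune markers only CD68 reached a mean of 1 CPM without SCFA, and PTPRC stayed at or under 0.152 CPM in all libraries. The 8 endothelial and fibroblast markers summed to 10.6 to 13.2 CPM without SCFA and to 39.8 to 70.4 CPM with it, mostly LUM, while KDR stayed at or under 0.0939 CPM. The part of these differences in the results below was not tested.

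To show where such control letters stand, the 100 bases before the start site of 9 members are given (RefSeq, GRCh38.p14, read 5′ to 3′ on the strand of the gene). The first 5 are G2/M genes with a CHR (TTTGAA) in capitals, and the last 4 are G1/S genes with an E2F motif in capitals.
CCNB2, chr15:59105046-59105145, plus strand: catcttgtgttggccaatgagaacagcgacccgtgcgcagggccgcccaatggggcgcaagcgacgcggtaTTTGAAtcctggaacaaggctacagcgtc
CKS1B, chr1:154974581-154974680, plus strand: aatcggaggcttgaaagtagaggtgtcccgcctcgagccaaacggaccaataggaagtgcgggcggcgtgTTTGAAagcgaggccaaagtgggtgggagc
PLK1, chr16:23678789-23678888, plus strand: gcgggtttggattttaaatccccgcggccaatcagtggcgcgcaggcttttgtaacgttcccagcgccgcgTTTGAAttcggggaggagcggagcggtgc
BUB1B, chr15:40160969-40161068, plus strand: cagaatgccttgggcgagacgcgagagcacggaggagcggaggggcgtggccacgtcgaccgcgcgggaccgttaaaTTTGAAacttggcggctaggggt
MKI67, chr10:128126424-128126523, minus strand: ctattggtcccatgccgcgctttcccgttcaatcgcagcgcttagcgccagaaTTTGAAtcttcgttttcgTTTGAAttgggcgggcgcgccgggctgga
E2F1, chr20:33686386-33686485, minus strand: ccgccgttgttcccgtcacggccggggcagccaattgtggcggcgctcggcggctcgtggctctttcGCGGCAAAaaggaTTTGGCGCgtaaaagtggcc
MCM7, chr7:100101398-100101497, minus strand: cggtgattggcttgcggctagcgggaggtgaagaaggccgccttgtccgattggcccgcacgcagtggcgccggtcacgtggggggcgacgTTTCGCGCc
PCNA, chr20:5126623-5126722, minus strand: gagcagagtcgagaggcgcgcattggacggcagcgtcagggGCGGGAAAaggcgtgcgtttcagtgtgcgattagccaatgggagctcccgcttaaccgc
TYMS, chr18:657553-657652, plus strand: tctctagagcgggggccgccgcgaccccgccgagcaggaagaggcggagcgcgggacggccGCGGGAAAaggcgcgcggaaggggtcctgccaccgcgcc

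In CCNB2 and PLK1 the CHR begins 29 bases before the start site, in CKS1B 30 and in BUB1B 23, and MKI67 holds 2, at 47 and 29 bases before it. The windows searched ran from 250 bases before to 50 bases after the start site. They were used or checked for 47 of the 60 members and for 27305 genes in all. Members on chromosome 8 (CCNE2, MYC and MCM4) were left out of the search, and the 27305 genes were not filtered by chromosome. The window listed for RB1 had its start site 172706 bases inside the gene as GENCODE 44 gives it and was left out. Of the other 46 windows, 44 had their start site within 5000 bases of the 5′ end of the gene. The farthest start site, that of CENPA, lay at 21767 bases, and such distances were not checked for all genes. The CHR was searched as TTTGAA or TTCGAA and the E2F motif as TTTCCCGC, TTTCGCGC, TTTGCCGC or TTTGGCGC, all on both strands. Anywhere in the window, a CHR was present in 14 of 23 G2/M members (60.9%), in 3 of 23 G1/S members (13.0%) and in 16.6% of all genes. A CHR that began within 50 bases of the start site was present in 11 of 23 G2/M members (47.8%), in 0 of 23 G1/S members and in 5.05% of all genes. An E2F motif was present in 12 of 23 G1/S members (52.2%), in 2 of 23 G2/M members (8.70%) and in 3.33% of all genes. CCAAT, a box common in promoters of this kind, was present in 78.3% of the G2/M members, 56.5% of the G1/S members and 35.7% of all genes. These are matches of letters, not binding sites, and the members were listed by known function, so the shares describe the list.

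To ask how the SCFAs bore on these genes in TNF-α-treated cells, each SCFA group was compared with TN. Of the 29 G2/M genes, 19 were called lower in each of the 4 comparisons, and the G1/S genes went in different directions. AURKA, the kinase of the spindle poles, fell to between 28.0% and 36.2% of its TN level in the 4 SCFA groups, and CCNB1, the main cyclin of mitosis, to between 30.0% and 41.0%. At G1/S, the cyclin genes CCND3 and CCNE1 and the nucleotide supply genes RRM2 and TK1 were higher, whereas TYMS, MCM7, E2F3, CDK4 and CDK6 were lower. In a bulk culture, fewer cells in a stage and less RNA per cell cannot be told apart.

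A gene was called where its fold change exceeded 1.5 and its p, adjusted by Benjamini-Hochberg over all 24342 genes, lay under 0.05 (limma-voom). Of 29 G2/M members, 22, 19, 22 and 22 were called lower against TN in PRTN, BUTN, TNPR and TNBU, and 0 were called higher in any. Of all genes tested, 16.7%, 14.8%, 16.9% and 16.5% were called lower in these comparisons. Among the 10194 genes with a mean of at least 10 CPM, which include all members, the shares were 23.2%, 21%, 24.8% and 24.7%. The median log2 fold change of the G2/M members was -0.81, -0.69, -0.92 and -0.95, beside 0.09, 0.08, 0.12 and 0.09 over all genes. Of 31 G1/S members, 7, 4, 7 and 6 were called higher and 5 in each comparison were called lower. Of all genes, 23.9%, 23.1%, 24.9% and 25% were called higher. The medians of the G1/S members were -0.05, -0.10, -0.08 and -0.07, and above 0 in all 4 (0.05 to 0.13) with library size alone as scaling, which moved the median of all genes up by 0.15 to 0.20. Under that scaling 11 G2/M members, in place of 19, were called lower in BUTN.

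The 4 comparisons share the TN libraries, so their calls are not independent. In each of the 4, the same 24 members were called lower, 19 of them at G2/M, and the same 4 were called higher, all at G1/S. Over all genes, 11.9% were called lower in each and 18.4% higher in each, and among genes of at least 10 CPM 18.7% and 13.5%. A further 3 members were called lower and 3 higher in some comparisons, and 26 in none. Compared with Ctrl in place of TN, 20, 18, 21 and 21 of the G2/M members were called lower in PRTN, BUTN, TNPR and TNBU, where 16.9%, 14.9%, 16.8% and 16.5% of all genes were. At G1/S, 4, 3, 4 and 5 members were called lower against Ctrl and 5, 6, 6 and 6 higher, where 22.6%, 22%, 23.6% and 23.6% of all genes were called higher.

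Set side by side, the 8 SCFA libraries lay below all 4 libraries without SCFA for 36 members, 26 of them at G2/M and 10 at G1/S. They lay above all 4 for 9 members, all at G1/S, and overlapped with them for 15, of which 12 were at G1/S and 3 at G2/M (CDC25C, CKS2 and TOP2A). Of all genes tested, 23.4% lay wholly below and 27.6% wholly above, and of those with at least 10 CPM 40.2% and 28.4%. The counts of G1/S members on either side stood near these shares, whereas the 26 of 29 G2/M members on the lower side stood well above them.

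**Figure D1:**
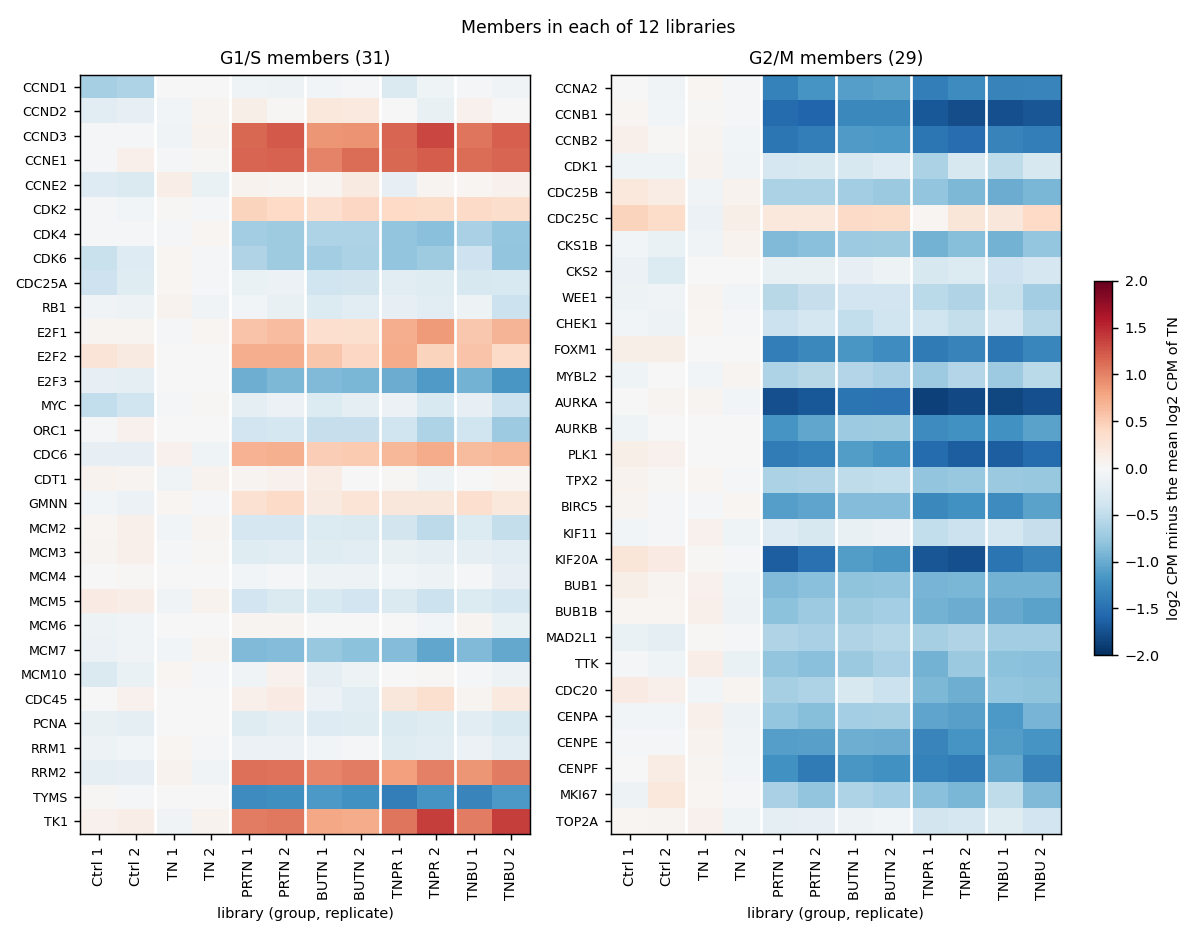
Heat map of the 60 members (rows, G1/S left and G2/M right) in the 12 libraries (columns, by group and replicate), coloured by log2 CPM minus the mean log2 CPM of TN. The median over the G2/M members was -0.68 to -0.95 in the 8 SCFA libraries and near 0 in Ctrl, and at G1/S rows of both colours stand side by side.

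Within each library, the median of the G2/M members relative to the TN mean, on the log2 CPM scale, was -0.79 and -0.83 for PRTN, -0.71 and -0.68 for BUTN, -0.95 and -0.92 for TNPR and -0.95 and -0.91 for TNBU. In Ctrl it was 0.00 and 0.01. The same median over the G1/S members lay between -0.13 and 0.00 in all 12 libraries.

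**Figure D2:**
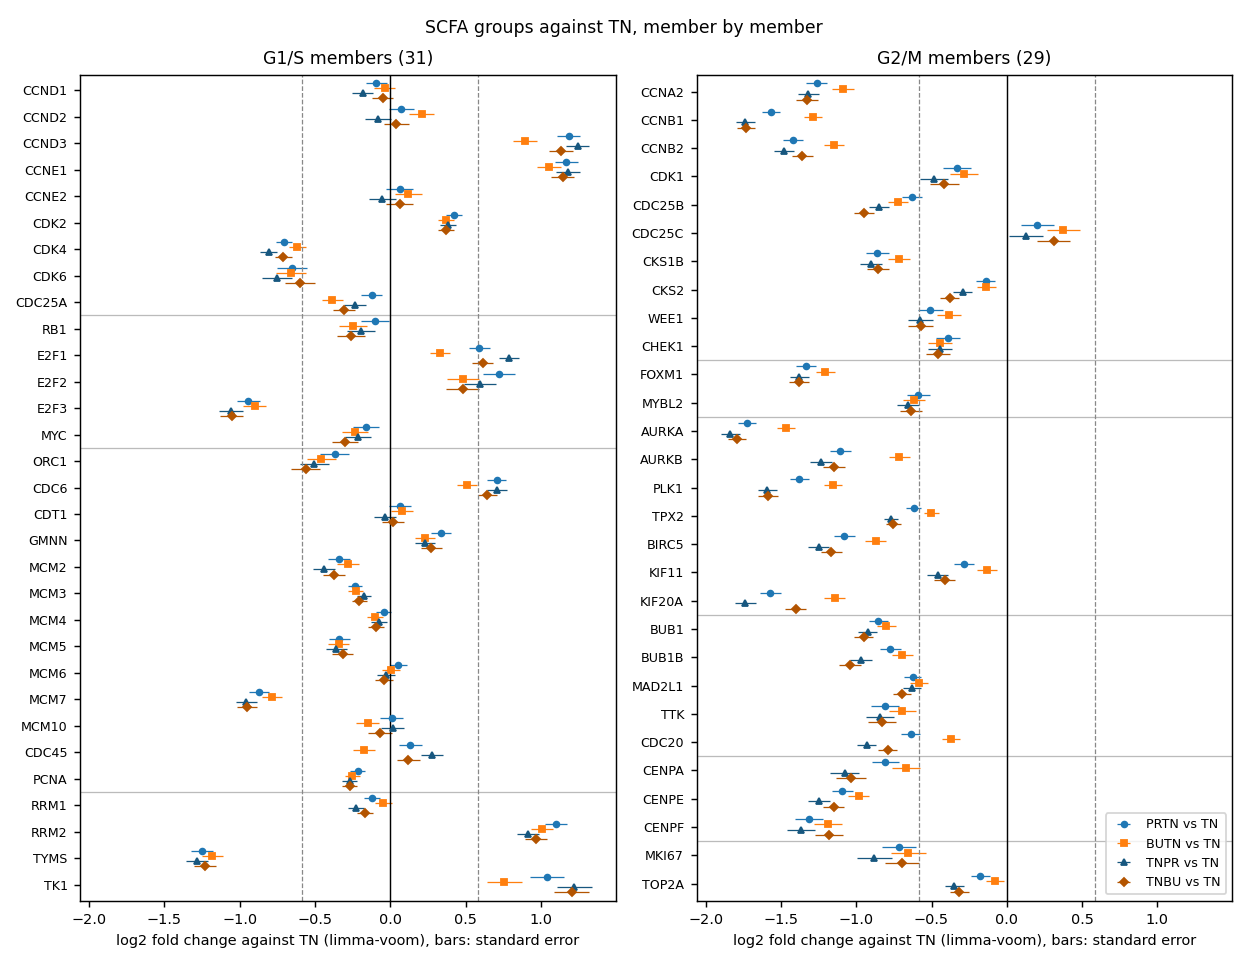
Log2 fold change against TN of each member in PRTN, BUTN, TNPR and TNBU (limma-voom), with standard errors as bars, dashed lines at a fold change of 1.5 and grey lines between roles. Of the G2/M members, 28 of 29 lie to the left of 0 in all 4 groups, CDC25C being the exception, and the G1/S members spread to both sides, from TYMS to CCND3.

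In what follows, both replicates are given for each group, and 4 log2 fold changes in a row are those against TN in the order PRTN, BUTN, TNPR and TNBU. Among the D and E cyclins, which with their kinases drive passage through G1, only CCND3 and CCNE1 were called against TN. CCND3, a D cyclin (chr6:41934934-42050357, minus strand), stood at 66.7 and 67.3 CPM for Ctrl, 64.9 and 72.0 for TN, 151 and 159 for PRTN, 126 and 128 for BUTN, 153 and 173 for TNPR and 143 and 157 for TNBU. All 8 SCFA libraries lay above the other 4, and the BUTN pair was the lowest of them. CCND3 had log2 fold changes against TN of 1.18, 0.89, 1.25 and 1.13 (standard error 0.08) in PRTN, BUTN, TNPR and TNBU, with adjusted p of at most 1.01e-06 (limma-voom). CCNE1, which activates CDK2 at the onset of replication (chr19:29811991-29824312, plus strand), measured 17.9 and 19.6 CPM for Ctrl, 18.0 and 18.6 for TN, 41.0 and 41.4 for PRTN, 36.5 and 39.6 for BUTN, 40.5 and 42.5 for TNPR and 39.8 and 41.2 for TNBU. Its level was more than doubled in every SCFA library against the mean of either group without SCFA, except in BUTN 1. CCNE1 had log2 fold changes of 1.17, 1.05, 1.18 and 1.14 (standard error 0.08), with adjusted p of at most 2.54e-07 (limma-voom).

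The other D and E cyclins were not called against TN. CCND1, the D cyclin that responds to growth factors, stood at 40.7 and 42.0 CPM for Ctrl, 64.1 and 64.7 for TN, 60.9 and 59.8 for PRTN, 62.02 and 63.5 for BUTN, 53.0 and 60.8 for TNPR and 62.7 and 61.6 for TNBU. The SCFA libraries lay near TN and above Ctrl. CCND1 had log2 fold changes against TN of -0.09, -0.04, -0.18 and -0.05 (standard error 0.07), none of them called, and those in PRTN, BUTN and TNBU were above 0 with library size alone as scaling. CCND2 and CCNE2 overlapped between libraries with and without SCFA, with log2 fold changes from -0.08 to 0.21 and from -0.05 to 0.12. Exons of CCNE2 share 37.0% of their bases with INTS8 on the opposite strand in GENCODE 44.

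The kinase partners of the D cyclins were lower. CDK4 measured 294 and 290 CPM for Ctrl, 291 and 307 for TN, 184 and 182 for PRTN, 195 and 195 for BUTN, 174 and 168 for TNPR and 191 and 175 for TNBU. No SCFA library reached the level of a library without SCFA. CDK4 had log2 fold changes of -0.71, -0.62, -0.81 and -0.71 (standard error 0.06), with adjusted p of at most 1.33e-06 (limma-voom). Of its exon bases, 44.2% overlap TSPAN31 on the opposite strand, whose own log2 fold changes were -0.29, -0.17, -0.21 and -0.17. CDK6, the second partner of the D cyclins, stood at 297 and 338 CPM for Ctrl, 417 and 395 for TN, 269 and 248 for PRTN, 252 and 261 for BUTN, 235 and 247 for TNPR and 304 and 235 for TNBU. TNBU 1 lay above Ctrl 1, so the libraries with and without SCFA overlapped, while all 8 lay below both TN libraries. CDK6 had log2 fold changes of -0.65, -0.66, -0.75 and -0.60 (standard error 0.10), with adjusted p of at most 0.000212 (limma-voom). CDK2, the partner of cyclin E, was above the libraries without SCFA in all 8 libraries, with log2 fold changes of 0.42, 0.37, 0.38 and 0.37 (standard error 0.05) that did not reach the fold threshold. With library size alone as scaling, CDK6 was called in none of the 4 comparisons and CDK4 in TNPR only. In TNBU, CDK6 also missed the fold threshold with DESeq2 (-0.58), without TN 1 (-0.58) and without TNBU 2 (-0.44). CDC25A, the phosphatase that activates CDK2, was not called, at -0.12, -0.39, -0.23 and -0.31 (standard error 0.07).

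E2F1 to E2F3 are the activating E2F factors, and they did not go the same way. E2F1 stood at 85.3 and 86.0 CPM for Ctrl, 80.1 and 85.0 for TN, 123 and 126 for PRTN, 104 and 103 for BUTN, 136 and 150 for TNPR and 120 and 133 for TNBU. All 8 SCFA libraries were above the other 4, the BUTN pair least. E2F1 had log2 fold changes of 0.59, 0.33, 0.79 and 0.61 (standard error 0.07) and was called higher in PRTN, TNPR and TNBU, with adjusted p of 1.03e-05, 7.21e-07 and 8.17e-06 (limma-voom). E2F2, also above in all 8 libraries, had log2 fold changes of 0.72, 0.48, 0.59 and 0.48 (standard error 0.11) and was called higher in PRTN and TNPR. E2F3 measured 89.4 and 87.6 CPM for Ctrl, 98.9 and 100 for TN, 50.4 and 53.4 for PRTN, 54.1 and 52.6 for BUTN, 50.3 and 45.5 for TNPR and 52.0 and 44.3 for TNBU. Every SCFA library lay below every other library. E2F3 had log2 fold changes of -0.94, -0.90, -1.06 and -1.05 (standard error 0.08), with adjusted p of at most 8.72e-07 (limma-voom). RB1, which holds these factors inactive, was not called, at -0.10, -0.25, -0.20 and -0.26 (standard error 0.09), nor was MYC, the growth factor-responsive transcription factor, at -0.16, -0.24, -0.22 and -0.30 (standard error 0.09).

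Origin licensing loads the MCM2 to MCM7 helicase on DNA, with ORC1, CDC6 and CDT1 as loaders and GMNN as the inhibitor of CDT1. CDC6 stood at 74.4 and 74.4 CPM for Ctrl, 88.2 and 78.2 for TN, 134 and 137 for PRTN, 117 and 119 for BUTN, 132 and 139 for TNPR and 128 and 131 for TNBU. The SCFA libraries were all above the others. CDC6 had log2 fold changes of 0.71, 0.51, 0.71 and 0.64 (standard error 0.06) and was called higher in PRTN, TNPR and TNBU but not in BUTN, where the fold change stayed under 1.5. ORC1, in the other direction, lay below in all 8 SCFA libraries at -0.37, -0.46, -0.51 and -0.56 (standard error 0.10) without a call, and CDT1 overlapped, at 0.06, 0.08, -0.04 and 0.02 (standard error 0.07). GMNN was above in all 8, at 0.34, 0.23, 0.23 and 0.27 (standard error 0.07), also without a call.

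MCM7 was the only subunit of the helicase that was called. It measured 480 and 494 CPM for Ctrl, 500 and 537 for TN, 283 and 284 for PRTN, 307 and 294 for BUTN, 284 and 251 for TNPR and 282 and 255 for TNBU. The SCFA libraries lay at 251 to 307 CPM against 480 to 537 CPM without SCFA. MCM7 had log2 fold changes of -0.87, -0.79, -0.96 and -0.95 (standard error 0.07), with adjusted p of at most 9.00e-07 (limma-voom). MCM2, MCM3, MCM4 and MCM5 also lay wholly below the libraries without SCFA, by smaller amounts, with log2 fold changes from -0.44 to -0.05. MCM6 overlapped, at 0.05, 0.01, -0.03 and -0.04 (standard error 0.06). Exons of MCM7 share 7.90% of their bases with AP4M1 on the opposite strand.

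PCNA, the sliding clamp of the replicative polymerases, stood at 328 and 318 CPM for Ctrl, 368 and 361 for TN, 310 and 318 for PRTN, 304 and 307 for BUTN, 297 and 307 for TNPR and 310 and 295 for TNBU. All 8 SCFA libraries lay below the other 4, by a small margin from Ctrl. PCNA had log2 fold changes of -0.22, -0.25, -0.27 and -0.27 (standard error 0.05), with adjusted p of at most 0.00236 (limma-voom), but under a fold of 1.5. The replication factors MCM10 and CDC45 overlapped between the libraries, at 0.01, -0.15, 0.01 and -0.07 (standard error 0.08) and 0.13, -0.18, 0.28 and 0.12 (standard errors 0.07 to 0.08).

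The 4 genes of deoxynucleotide supply went apart. RRM2, the regulated subunit of ribonucleotide reductase (chr2:10120698-10211725, plus strand), stood at 250 and 252 CPM for Ctrl, 295 and 269 for TN, 605 and 600 for PRTN, 555 and 575 for BUTN, 496 and 567 for TNPR and 521 and 580 for TNBU. The lowest SCFA library, at 496 CPM, exceeded the highest other library, at 295 CPM. RRM2 had log2 fold changes of 1.10, 1.01, 0.91 and 0.96 (standard error 0.07), with adjusted p of at most 3.98e-07 (limma-voom). RRM1, the other subunit, was not called, at -0.12, -0.05, -0.23 and -0.17 (standard errors 0.05 to 0.06). TK1, the thymidine salvage kinase, measured 217 and 223 CPM for Ctrl, 194 and 215 for TN, 417 and 423 for PRTN, 350 and 341 for BUTN, 428 and 531 for TNPR and 415 and 532 for TNBU. The second replicates of TNPR and TNBU were the highest. TK1 had log2 fold changes of 1.04, 0.76, 1.22 and 1.20 (standard error 0.12), with adjusted p of at most 0.000132 (limma-voom).

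TYMS makes thymidylate from the deoxyuridine nucleotide, the synthesis route beside the salvage by TK1. It lies at chr18:657653-673578, plus strand. TYMS stood at 191 and 184 CPM for Ctrl, 187 and 187 for TN, 77.9 and 79.6 for PRTN, 84.1 and 81.0 for BUTN, 72.0 and 82.3 for TNPR and 74.9 and 84.4 for TNBU. The SCFA libraries, at 72.0 to 84.4 CPM, were all below 184 CPM, the lowest of the others. TYMS had log2 fold changes of -1.25, -1.18, -1.28 and -1.23 (standard error 0.07), with adjusted p of at most 5.39e-08 (limma-voom). In GENCODE 44, 39.9% of its exon bases overlap ENOSF1 on the opposite strand, and the sources do not say whether the counting used the strand, so reads of these genes may be mixed. ENOSF1 itself had log2 fold changes of -0.78, -0.75, -0.56 and -0.73, going from a mean of 18.2 CPM in TN to between 10.1 and 13.7 CPM in the SCFA libraries.

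**Figure D3:**
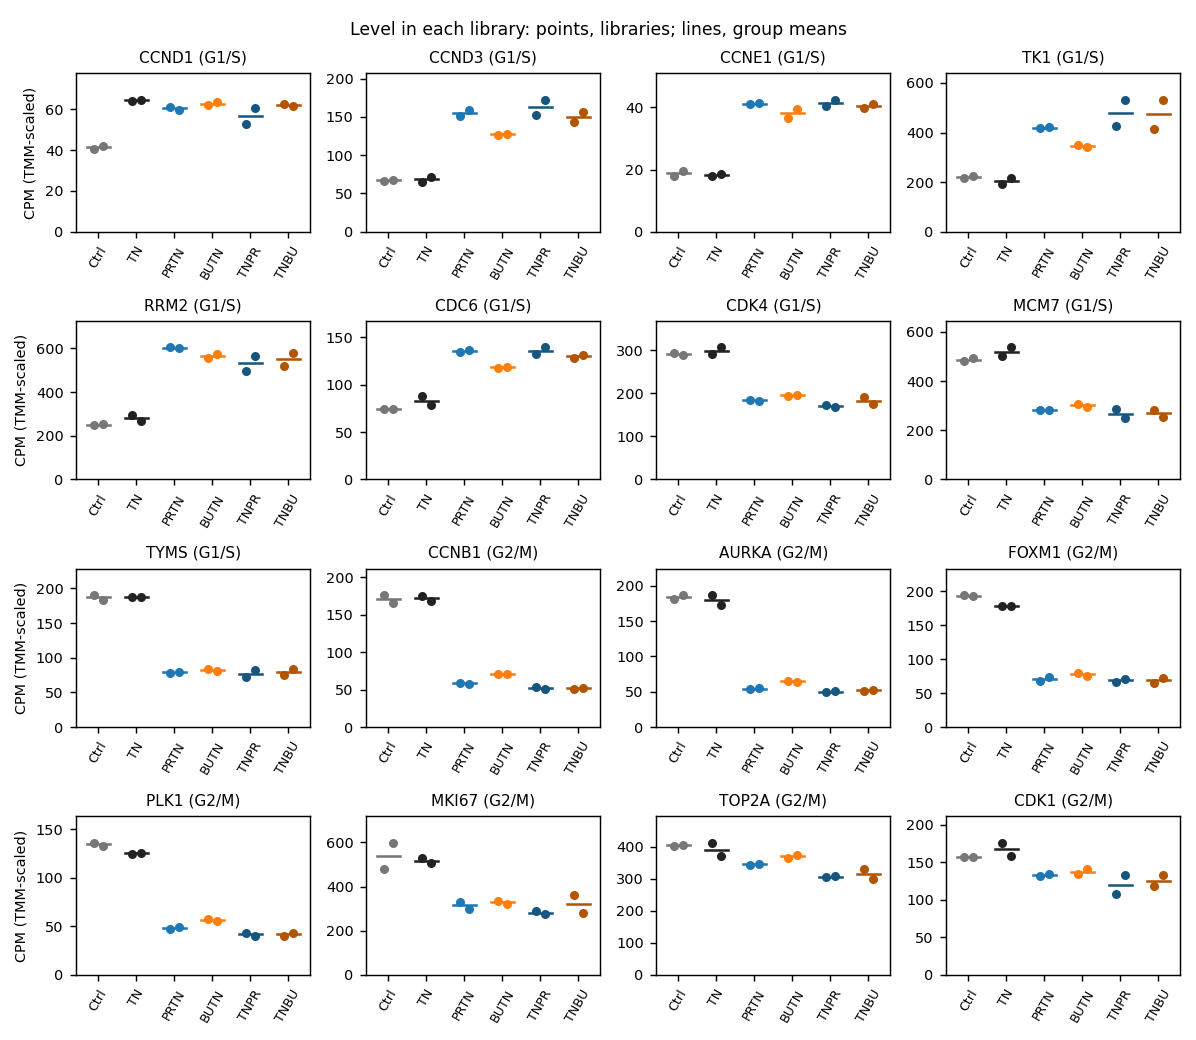
Level of 16 members in CPM (TMM-scaled, axes from 0) in the 6 groups, with 1 point per library and a line at the mean of the 2 replicates. CCND3, CCNE1, TK1, RRM2 and CDC6 are higher in all 8 SCFA libraries, the members from CDK4 to MKI67 are lower, TOP2A and CDK1 differ less, and CCND1 differs between Ctrl and TN.

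Of the 10 genes of the mitotic cyclins, CDK1 and their control, the same 5 were called lower in each comparison with TN and 0 higher. CCNB1, which binds CDK1 at the entry into mitosis (chr5:69167135-69178245, plus strand), stood at 176 and 166 CPM for Ctrl, 176 and 169 for TN, 59.5 and 57.1 for PRTN, 70.7 and 70.5 for BUTN, 53.1 and 50.3 for TNPR and 51.0 and 52.7 for TNBU. Each SCFA library lay under 71 CPM and each other library at 166 CPM or more. CCNB1 had log2 fold changes of -1.56, -1.29, -1.74 and -1.73 (standard error 0.06), with adjusted p of at most 6.24e-09 (limma-voom). CCNB2, the second B cyclin, whose CHR is printed above, measured 71.6 and 68.0 CPM for Ctrl, 69.1 and 64.5 for TN, 24.5 and 25.5 for PRTN, 30.3 and 30.0 for BUTN, 24.6 and 23.2 for TNPR and 26.4 and 25.7 for TNBU. The groups did not overlap, and the BUTN pair was again the least reduced. CCNB2 had log2 fold changes of -1.42, -1.15, -1.48 and -1.36 (standard error 0.07), with adjusted p of at most 3.59e-08 (limma-voom).

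CCNA2, the cyclin of S phase and G2, was also called lower, at -1.26, -1.09, -1.32 and -1.32 (standard error 0.07). CDC25B, a phosphatase that activates CDK1, was lower at -0.63, -0.72, -0.85 and -0.95 (standard error 0.07), and CKS1B, a small subunit of the kinase complexes, at -0.86, -0.72, -0.90 and -0.86 (standard errors 0.07 to 0.08). The partner of these cyclins did not follow to the same extent. CDK1 stood at 158 and 157 CPM for Ctrl, 176 and 159 for TN, 132 and 134 for PRTN, 134 and 141 for BUTN, 107 and 133 for TNPR and 118 and 133 for TNBU. All 8 SCFA libraries lay below the others, yet the fold changes stayed under the threshold. CDK1 had log2 fold changes of -0.33, -0.28, -0.48 and -0.41 (standard error 0.09). CKS2 was at -0.14, -0.14, -0.29 and -0.38 (standard errors 0.06 to 0.07) without a call. WEE1, the kinase that holds CDK1 inactive, and CHEK1, the checkpoint kinase, were below in all 8 libraries, at -0.38 to -0.57 and -0.39 to -0.46, without calls. CDC25C was the single G2/M member with estimates above 0 in all 4 comparisons with TN, at 0.20, 0.37, 0.13 and 0.31 (standard error 0.11). Its mean in Ctrl, 13.8 CPM, lay above its means in PRTN, BUTN, TNPR and TNBU, at 12.1, 13.6, 11.5 and 13.0 CPM, although single libraries overlapped.

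Both G2/M transcription factors were called lower in every comparison with TN. FOXM1, a forkhead factor that acts at mitotic genes, stood at 194 and 193 CPM for Ctrl, 178 and 179 for TN, 68.4 and 73.3 for PRTN, 79.7 and 75.4 for BUTN, 66.7 and 70.8 for TNPR and 65.5 and 71.9 for TNBU. The SCFA libraries held less than 80 CPM and the others 178 CPM or more. FOXM1 had log2 fold changes of -1.33, -1.20, -1.38 and -1.38 (standard error 0.06), with adjusted p of at most 1.68e-08 (limma-voom). MYBL2 measured 449 and 483 CPM for Ctrl, 458 and 499 for TN, 313 and 324 for PRTN, 320 and 306 for BUTN, 290 and 318 for TNPR and 289 and 329 for TNBU. It was lower in all 8 SCFA libraries, by less than FOXM1 in each comparison. MYBL2 had log2 fold changes of -0.59, -0.61, -0.66 and -0.63 (standard error 0.07), with adjusted p of at most 1.95e-05 (limma-voom). In PRTN this was just past the fold threshold of 1.5. Exons of FOXM1 share 15.9% of their bases with ITFG2 on the opposite strand.

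The mitotic kinases held the lowest log2 fold change among the members. AURKA, the kinase of the centrosome and spindle poles (chr20:56369389-56392337, minus strand), stood at 181 and 187 CPM for Ctrl, 187 and 173 for TN, 53.2 and 55.5 for PRTN, 65.4 and 64.5 for BUTN, 49.4 and 51.1 for TNPR and 50.8 and 52.8 for TNBU. All SCFA libraries were below 66 CPM and all others above 172 CPM. AURKA had log2 fold changes of -1.72, -1.47, -1.84 and -1.79 (standard error 0.06), with adjusted p of at most 2.38e-09 (limma-voom). PLK1, the Polo kinase of mitotic entry and exit, measured 136 and 132 CPM for Ctrl, 125 and 126 for TN, 47.3 and 49.0 for PRTN, 57.6 and 55.1 for BUTN, 43.2 and 40.0 for TNPR and 40.2 and 43.2 for TNBU. The later pairs TNPR and TNBU were below the earlier pairs PRTN and BUTN. PLK1 had log2 fold changes of -1.38, -1.15, -1.59 and -1.59 (standard error 0.06), with adjusted p of at most 1.94e-08 (limma-voom).

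AURKB, the kinase of the chromosomal passenger complex, and BIRC5, its survivin subunit, were called lower too, at -1.11, -0.71, -1.23 and -1.15 (standard error 0.07) and -1.08, -0.87, -1.25 and -1.17 (standard error 0.07). KIF20A, a kinesin of the last step of division, stood at 144 and 135 CPM for Ctrl, 123 and 119 for TN, 38.8 and 42.8 for PRTN, 55.6 and 54.1 for BUTN, 36.9 and 35.8 for TNPR and 44.01 and 47.7 for TNBU. The BUTN pair was the least reduced of the 4 SCFA groups. KIF20A had log2 fold changes of -1.57, -1.14, -1.74 and -1.40 (standard error 0.07), with adjusted p of at most 4.06e-08 (limma-voom). TPX2, which activates AURKA on the spindle, was called lower in PRTN, TNPR and TNBU and missed the fold threshold in BUTN, at -0.62, -0.50, -0.77 and -0.75 (standard error 0.05). KIF11, the motor that separates the spindle poles, was not called, at -0.29, -0.13, -0.46 and -0.41 (standard error 0.07).

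All 5 genes of the spindle checkpoint and its target were called lower in PRTN, TNPR and TNBU, and 3 of them in BUTN. BUB1, a checkpoint kinase at the kinetochore, stood at 159 and 152 CPM for Ctrl, 155 and 139 for TN, 80.04 and 82.5 for PRTN, 83.9 and 84.7 for BUTN, 76.9 and 77.8 for TNPR and 76.0 and 75.9 for TNBU. The SCFA libraries spanned 75.9 to 84.7 CPM and the others 139 to 159 CPM. BUB1 had log2 fold changes of -0.85, -0.80, -0.92 and -0.95 (standard error 0.06), with adjusted p of at most 4.04e-07 (limma-voom). MAD2L1, which with BUB1B withholds CDC20 from the anaphase-promoting complex, measured 64.9 and 61.6 CPM for Ctrl, 71.7 and 69.7 for TN, 46.4 and 45.3 for PRTN, 46.6 and 47.8 for BUTN, 44.9 and 46.4 for TNPR and 43.5 and 43.7 for TNBU. Its libraries did not overlap between the groups with and without SCFA. MAD2L1 had log2 fold changes of -0.63, -0.58, -0.63 and -0.70 (standard error 0.06) and lay just inside the fold threshold in BUTN, so it was not called there. BUB1B and TTK were called in all 4, at -0.77, -0.69, -0.97 and -1.04 (standard error 0.07) and -0.81, -0.69, -0.84 and -0.83 (standard error 0.09). CDC20, the activator that the checkpoint holds back, was called in all but BUTN, at -0.64, -0.37, -0.93 and -0.79 (standard error 0.06).

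The 3 kinetochore genes were called lower in each comparison with TN. CENPE, a kinetochore motor, stood at 79.6 and 79.95 CPM for Ctrl, 86.0 and 77.4 for TN, 38.1 and 38.4 for PRTN, 41.6 and 40.9 for BUTN, 32.7 and 36.1 for TNPR and 37.5 and 36.0 for TNBU. Every SCFA library lay under 42 CPM and every other library above 77 CPM. CENPE had log2 fold changes of -1.09, -0.98, -1.25 and -1.15 (standard error 0.07), with adjusted p of at most 1.96e-07 (limma-voom). CENPF, a protein of the outer kinetochore in G2 and mitosis, measured 496 and 547 CPM for Ctrl, 515 and 477 for TN, 213 and 186 for PRTN, 221 and 213 for BUTN, 195 and 189 for TNPR and 243 and 197 for TNBU. The levels with SCFA did not exceed 243 CPM. CENPF had log2 fold changes of -1.31, -1.19, -1.37 and -1.18 (standard error 0.09), with adjusted p of at most 3.9e-07 (limma-voom). CENPA, the histone variant that marks the centromere, was at -0.81, -0.67, -1.07 and -1.04 (standard errors 0.09 to 0.10).

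The 2 markers commonly used to count dividing cells differed in size. MKI67, which encodes the Ki-67 antigen, stood at 482 and 599 CPM for Ctrl, 528 and 505 for TN, 331 and 297 for PRTN, 335 and 322 for BUTN, 288 and 273 for TNPR and 361 and 281 for TNBU. The replicates of Ctrl and of TNBU lay the farthest apart, and the groups with and without SCFA still did not overlap. MKI67 had log2 fold changes of -0.72, -0.65, -0.88 and -0.70 (standard error 0.11), with adjusted p of at most 0.00033 (limma-voom). TOP2A, the topoisomerase that untangles sister chromatids, measured 401 and 407 CPM for Ctrl, 413 and 370 for TN, 344 and 348 for PRTN, 365 and 375 for BUTN, 305 and 309 for TNPR and 330 and 299 for TNBU. BUTN 2 lay above TN 2, so the libraries overlapped. TOP2A had log2 fold changes of -0.18, -0.08, -0.35 and -0.32 (standard error 0.06) and was not called, and the BUTN value was above 0 with library size alone as scaling.

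A further pair of lists of the same pathway was read in the same way, with no member in common with the 60 genes. Of 44 other mitosis genes, 26, 16, 30 and 31 were called lower in PRTN, BUTN, TNPR and TNBU against TN and 0 higher, with medians of -0.64, -0.52, -0.73 and -0.67. The shares of all genes called lower, as given above, were 16.7%, 14.8%, 16.9% and 16.5%. The largest mean changes among them were those of LMNB1, UBE2C and HMMR. LMNB1, lamin B1 of the nuclear lamina, had log2 fold changes of -1.47, -1.16, -1.59 and -1.42 (standard error 0.06), UBE2C, a ubiquitin-conjugating enzyme of mitotic exit, -1.36, -1.03, -1.52 and -1.39 (standard error 0.08), and HMMR, a spindle protein, -1.33, -0.98, -1.53 and -1.33 (standard errors 0.10 to 0.11). Of 44 other replication genes, 8, 7, 9 and 8 were called higher and 4, 2, 4 and 3 lower, with medians of 0.10, 0.04, 0.10 and 0.10. In both directions these counts stood below the shares of all genes, of which 23.9%, 23.1%, 24.9% and 25% were called higher. Among genes of at least 10 CPM, the share called higher in each of the 4 comparisons was 13.5%, beside 18.4% of all genes. The share called higher in single comparisons was not computed for such genes. PRIM2, a primase subunit, was higher at 1.11, 0.99, 1.14 and 1.15 (standard error 0.07). TIMELESS, a fork protection factor, was lower at -1.06, -0.92, -1.15 and -1.05 (standard errors 0.07 to 0.08), and GINS3, a helicase cofactor, at -1.07, -0.79, -1.22 and -0.96 (standard error 0.08).

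Of 8 CDK inhibitor genes, 3 were called higher in each comparison with TN, and 4, 3, 4 and 4 were called lower. With 8 genes, the shares of all genes called in the same comparisons, 23.1% to 25% higher and 14.8% to 16.9% lower, correspond to 1 or 2 genes in either direction, so nothing particular to the list is read from these counts. CDKN1A, the p21 inhibitor, stood at 29.4 and 28.4 CPM for Ctrl, 38.9 and 38.3 for TN, 287 and 289 for PRTN, 268 and 259 for BUTN, 227 and 234 for TNPR and 228 and 252 for TNBU. Every SCFA library was above 226 CPM and every other library below 39 CPM. CDKN1A had log2 fold changes of 2.90, 2.77, 2.58 and 2.64 (standard errors 0.06 to 0.07), and CDKN2D and CDKN3 were the other genes called higher. CDKN2B, called higher in TN against Ctrl (log2 fold change 0.92), was called lower in each SCFA group against TN, at -1.45, -1.17, -1.67 and -1.43 (standard errors 0.07 to 0.08). Of 10 genes of the RB family and its repressor partners, 2, 2, 2 and 1 were called higher and 3, 3, 4 and 3 lower. Beside the same shares of all genes, nothing particular to these 10 genes is read from the counts. LIN9, a subunit shared by DREAM and the MYBL2 complex, was lower at -1.30, -1.19, -1.32 and -1.41 (standard errors 0.10 to 0.11), LIN54, the subunit that contacts the CHR, was higher at 1.08, 0.94, 1.10 and 0.96 (standard error 0.10), and RBL1, the p107 pocket protein, was lower at -0.90, -0.73, -0.84 and -0.76 (standard error 0.07).

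The promoter letters were set beside these calls as a description. Among G2/M members with a window, a CHR within 50 bases of the start site was present in 8 of the 15 called lower in all 4 comparisons (53.3%) and in 2 of the 6 called in none (33.3%), KIF11 and CKS2. Anywhere in the window, the order was the other way, with a CHR in 8 of those 15 (53.3%) and in 4 of those 6 (66.7%). Among G1/S members, an E2F motif was present in 0 of the 4 called higher in all comparisons, in 3 of the 3 called higher in some (E2F1, E2F2 and CDC6), in 3 of the 5 called lower in all (E2F3, MCM7 and TYMS) and in 6 of the 11 called in none. Members with an E2F motif in the window thus stood on both sides, CDC6 higher and MCM7 lower.

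To ask what TNF-α did to these genes without SCFA, TN was compared with Ctrl. Only CCND1 was called, higher by 0.64 on the log2 scale (limma-voom, SE 0.07, adjusted p 0.000406), from 40.7 and 42.0 CPM in Ctrl to 64.1 and 64.7 CPM in TN. Over all genes, 1.3% were called in this comparison. At an unadjusted p under 0.05, 14 members passed, 11 higher and 3 lower, by limma-voom, 16 by edgeR and 15 by DESeq2, and either of these tools also called 1 member. With library size alone as scaling, or with a fold change over 2, 0 members were called. MYC, at 160 and 170 CPM in Ctrl and 219 and 229 CPM in TN, had a log2 fold change of 0.44 (adjusted p 0.0163, limma-voom), under the fold threshold. CDC25A had one of 0.33 (adjusted p 0.0281, limma-voom). At G2/M the median log2 fold change was -0.01, with 15 members below 0 and 14 above, from -0.40 for CDC25C to 0.20 for CKS2.

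**Figure D4:**
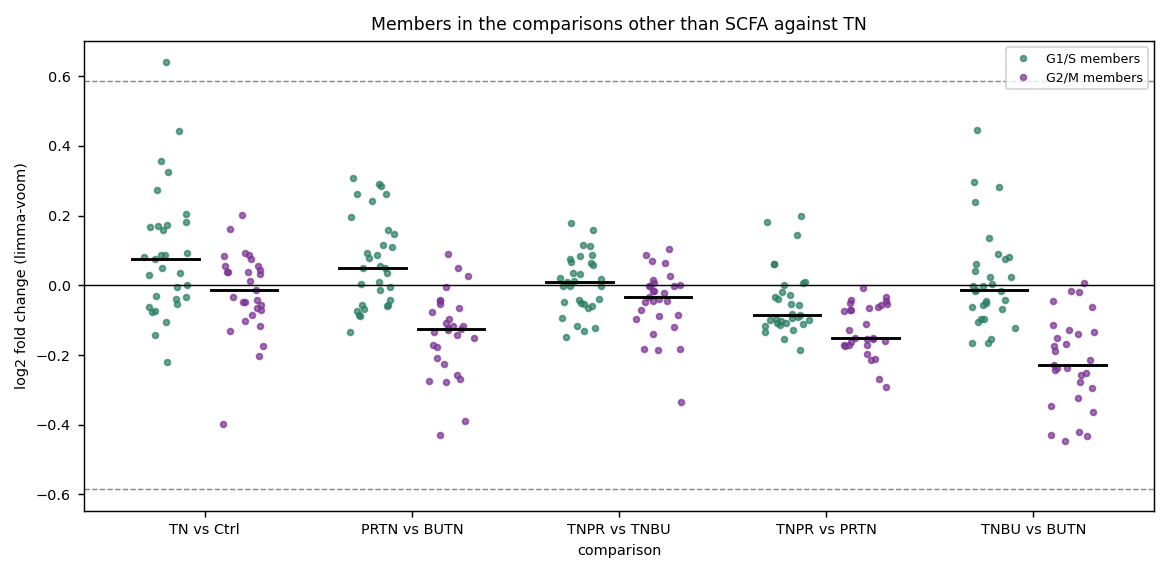
Log2 fold changes (limma-voom) of the 31 G1/S and 29 G2/M members, 1 point per gene, in the comparisons that do not set an SCFA group against TN, with black lines at the medians and dashed lines at a fold change of 1.5. CCND1 in TN vs Ctrl is the only point past the threshold, and the G2/M medians lie at -0.12 in PRTN vs BUTN, -0.15 in TNPR vs PRTN and -0.23 in TNBU vs BUTN.

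Propionate and butyrate were given at different doses, so their values are set side by side. With either SCFA given before TNF-α, 0 members were called between PRTN and BUTN, while 0.168% of all genes were, and 18 members passed an unadjusted p under 0.05 by limma-voom, 17 by edgeR and 17 by DESeq2. The difference farthest from 0 was that of KIF20A, 38.8 and 42.8 CPM in PRTN and 55.6 and 54.1 CPM in BUTN, with a log2 fold change of -0.43 (adjusted p 0.0283, limma-voom). AURKB had one of -0.39 (adjusted p 0.0400, limma-voom), from 30.8 and 33.9 CPM in PRTN and 42.2 and 42.4 CPM in BUTN. Of the 29 G2/M members, 26 had an estimate below 0, with a median of -0.12, and of the 31 G1/S members 20 had one above 0, with a median of 0.05. Over all genes, 52.7% were below 0.

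With SCFA given after TNF-α, the values of TNPR and TNBU lay closer together. No member was called and 0.00822% of all genes were. At an unadjusted p under 0.05, 2 members passed by limma-voom, 3 by edgeR and 4 by DESeq2. KIF20A was again the farthest from 0, at -0.33, and the G2/M median was -0.03.

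Timing was compared within each SCFA, the later against the earlier treatment. In PRTN and BUTN the 3 h of TNF-α came last, and in TNPR and TNBU 24 h of SCFA followed it. The order of treatment and the time since TNF-α therefore cannot be told apart in these comparisons. TNPR against PRTN gave 0 called members beside 0.16% of all genes, with 14 members at an unadjusted p under 0.05 by limma-voom, edgeR and DESeq2 alike. All 29 G2/M members had an estimate below 0, from -0.29 for CDC20 to -0.01, with a median of -0.15, where 49.8% of all genes were below 0. At G1/S, 23 of 31 were below 0, with a median of -0.08. TNBU against BUTN gave 0 called members beside 0.267% of all genes, with 26 at an unadjusted p under 0.05 by limma-voom, 25 by edgeR and 24 by DESeq2. Of the G2/M members, 28 of 29 were below 0, with a median of -0.23, where 50.9% of all genes were. At G1/S, 18 of 31 were below 0, with a median of -0.01. CCNB1, at 70.7 and 70.5 CPM in BUTN and 51.0 and 52.7 CPM in TNBU, had a log2 fold change of -0.45 (adjusted p 0.00984, limma-voom), and CDC20, at 172 and 160 against 125 and 123 CPM, had -0.42 (adjusted p 0.0119, limma-voom). PLK1 and AURKB stood at -0.43 and -0.43, AURKA at -0.32 and TPX2 at -0.25, each with an adjusted p under 0.05 but inside the fold threshold. TK1 went the other way, at 0.45, with 350 and 341 CPM in BUTN and 415 and 532 CPM in TNBU, and was the only member called, higher, when the first TNBU replicate was left out.

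The test of whether timing differed between propionate and butyrate called 0 members and 0% of all genes, and 4 members passed an unadjusted p under 0.05 by limma-voom, 4 by edgeR and 2 by DESeq2. AURKB was the farthest from 0, at -0.30. The median standard error of this difference was 0.10, against about 0.07 in the comparisons of 2 groups, so this test is less precise than they are.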

How the data were processed

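RNA of HK2 cells was measured in 12 stranded mRNA libraries on an Illumina HiSeq instrument, 2 in each of 6 groups, which were taken from the labels. For each gene the authors deposited an expected count, obtained with STAR 2.6.1a (FastQC 0.11.5 for quality) on GRCh38 and RSEM on GENCODE release 26 (tools and versions from the submitters' processing notes). They were neither scaled nor filtered, and 19.3% are not whole numbers. The RSEM version and its strand setting are not given in the sources used here.

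Expected counts were tested unrounded with limma 3.58.1 (voom) in R 4.3.3, with TMM factors from edgeR 4.0.16, a mean per group and Benjamini-Hochberg adjustment. Genes with a geometric mean of the count plus 1, minus 1, of at least 1 were kept, which removed 33936. A call needed more than a 1.5-fold change together with an adjusted p below 0.05. The methods were tested on simulated data. Alternatives were edgeR and DESeq2 1.42.0 on rounded counts, other scalings and filters, fits of the compared groups only, a replicate block, other fold thresholds, leaving out replicates and leaving out members of ambiguous phase.

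Given in every library are MKI67, TOP2A and PCNA, the 2 members of each role with the smallest value of the largest adjusted p against TN, members called in the other comparisons, and those called against most of their phase. TK1, CDK1 and KIF20A were added after their values were seen. The members, lists, motifs and the 10 CPM background were chosen with earlier results of these data known. Positions come from GENCODE 44 and promoters from RefSeq.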

Additional observations from a re-analysis of the deposited data

How the results depend on the processing

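Of 675 alternative values of counts and medians, 586 were classed as the same. The rest were 60 medians classed as moved, 11 counts classed as stronger and 18 counts classed as weaker. Counts have no error of their own, and small changes in them were classed as the same. Medians classed as moved include some that kept their sign. With library size alone as scaling, the median of all genes rose by 0.15 to 0.20 in the comparisons with TN, so the changes there are relative to that shift. Under it, the G2/M medians were -0.65, -0.54, -0.75 and -0.75 in PRTN, BUTN, TNPR and TNBU, and 11 G2/M members were called lower in BUTN. The G1/S medians were 0.11, 0.054, 0.091 and 0.13, and 3 G1/S members each were called lower in PRTN, BUTN and TNBU. CCND1 turned from below to above 0 in PRTN (0.062), BUTN (0.12) and TNBU (0.14), as did TOP2A in BUTN (0.076), and 0 members were called in TN against Ctrl. With a fold change over 2, the G2/M members called lower were 11, 8, 12 and 13, the G1/S members called lower 1, 1, 2 and 2 and called higher 4, 2, 3 and 3, and 0 members were called in TN against Ctrl. Without a fold threshold, 10, 13, 13 and 14 G1/S members were called lower and 10 higher in BUTN, 1 G2/M member was called higher in BUTN and in TNBU, 3 members were called in TN against Ctrl, 2 in PRTN against BUTN and 6 in TNBU against BUTN.

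The G1/S median in PRTN was -0.037 with DESeq2, -0.038 with relative log expression, -0.068 with no filter, -0.082 with filterByExpr, -0.061 with only the groups compared and -0.069 without members of ambiguous phase. In BUTN it was -0.082, -0.083, -0.13 and -0.13 with the first 4 of these, -0.087 with a literal geometric mean and -0.13 without members of ambiguous phase. In TNPR it was -0.11 with filterByExpr, -0.11 with only the groups compared and -0.13 without members of ambiguous phase, and the G2/M median in TNBU without such members was -1.04. Leaving out 1 replicate at a time, the G1/S median ranged from -0.096 to -0.046 in PRTN, -0.13 to -0.10 in BUTN, -0.18 to -0.083 in TNPR and -0.16 to -0.054 in TNBU. The G2/M median ranged from -0.91 to -0.73 in PRTN, -0.75 to -0.70 in BUTN, -1.01 to -0.93 in TNPR and -0.98 to -0.94 in TNBU, with 21 to 23, 19 to 20, 22 to 24 and 21 to 23 members called lower. In TNBU against BUTN, 0 to 1 members were called, the 1 being TK1 without TNBU replicate 1. A group left with 1 library is assumed to vary like the others.

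Over all genes tested, deviations of same-numbered libraries correlated from -0.05 to 0.11 over 15 pairs of groups. Only 1 pair, TNPR with TNBU, was over 0.1. In that pair TK1, E2F1 and MCM7 differed between replicates in the same direction in both groups, while CDK6 and CCND1 did not. A replicate effect shared by TNPR and TNBU alone was not tested. With the replicate number as a block, 22, 19, 22 and 22 G2/M members were called lower, as without it, and the call of no named member changed. With 2 replicates, p-values measure the spread between these cultures.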
